A study of Homo sapiens with 10 samples.

Results

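The genes described here encode the receptors of endoplasmic reticulum (ER)-phagy, and they comprise CCPG1, FAM134A, FAM134B, FAM134C, RTN3, TEX264, ATL3 and CALCOCO1. They were taken by gene symbol from a count table of 32738 genes, so the group holds 8 of 32738 genes, and all 8 were listed in the table. The symbols FAM134A, FAM134B and FAM134C are older names of RETREG2, RETREG1 and RETREG3. The genes were chosen by their symbols with their log2 fold changes after tunicamycin in these libraries already known. These fold changes are therefore given as a description, without p-values. Where a receptor gene is said to pass a threshold, this only places it among all tested genes and is not an independent test of it. The lists of related genes below were also chosen with earlier results of these data known. Their adjusted p-values likewise place them among all tested genes and are not independent tests.

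The data come from HepG2 cells, a human hepatoma line. Cells were kept in regular medium (Control) or exposed for 17 h to 2 µg/ml tunicamycin, which blocks N-linked glycosylation and so causes misfolded glycoproteins to collect in the ER. Each condition had 5 libraries from 5 experiments carried out on separate days, and there was 1 cell line, 1 dose and 1 time point. RNA was measured with QuantSeq, a 3′ tag method that yields about 1 read per transcript, so levels need no division by length. Comparisons between genes still depend on how reads were assigned to each gene, which was not tested. The measured levels are per gene and do not separate isoforms.

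ER-phagy is the selective delivery of pieces of the ER to lysosomes by autophagy. Its receptors sit in or attach to the ER membrane and carry a short motif that binds proteins of the ATG8 family (LC3 and GABARAP) on the growing autophagosome membrane. In the liver, whose cells make large amounts of secreted protein, ER-phagy is one of the routes that trim the ER and remove proteins that the ER-associated degradation pathway cannot handle. CCPG1 also binds RB1CC1 (FIP200), a scaffold of the ULK1 autophagy initiation complex, and is known as a gene of the unfolded protein response.

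CCPG1 was by far the most strongly changed receptor gene after tunicamycin, and FAM134A and FAM134C were lower. RTN3, TEX264 and CALCOCO1 had values that overlapped between the conditions. FAM134B and ATL3 were at or near 0 in both conditions. The threshold was 0.05 on the Benjamini-Hochberg adjusted p of edgeR's quasi-likelihood test. In all, 6 of the 8 genes had enough counts to be tested and 3 of these 6 passed it, with 1 higher (CCPG1) and 2 lower (FAM134A and FAM134C). Over all 12733 tested genes 34.2% passed, 17.6% being higher and 16.6% lower. The same 3 receptor genes had values that did not overlap between the conditions, as did 23.5% of all tested genes (11.7% higher and 11.9% lower). The choice of the receptor genes used this contrast, so nothing is read from these counts. The median log2 fold change of the 6 tested receptor genes was -0.06, beside -0.00 for all tested genes.

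Totals were between 4242538 and 4888292 counts in the Control libraries and between 2234682 and 5029864 in the Tunicamycin libraries. Tunicamycin replicates 5 and 4 were the shallowest, with 2234682 and 3567316 counts. Mitochondrial genes took 22.7 to 25.2% of the counts in Control and 18.3 to 28.8% with tunicamycin, and the highest share was in Tunicamycin replicate 4. HSPA5, the ER chaperone BiP, rose by a log2 fold change of 2.97 (SE 0.08, adjusted p = 1.36e-14, edgeR's quasi-likelihood test). All 8 hepatocyte markers examined were detected, and 4 of them were lower with tunicamycin by the same test (TTR -1.02, APOA1 -0.91, APOB -0.78 and FGB -0.76), 0 were higher and 4 did not pass, ALB among these. The leukocyte gene PTPRC and the fibroblast gene COL1A2 had 0 counts in every library, and the fibroblast gene COL1A1 had 5 counts in 1 Tunicamycin library and 0 in the others. The part of these markers in the values of the receptor genes was not tested. Scaling by library size alone, in place of trimmed means of M-values (TMM), changed the split of calls over all genes from 2237 higher and 2116 lower to 1774 higher and 2570 lower.

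CCPG1 (ENSG00000260916) encodes a single-pass ER membrane protein. In GRCh38 the gene lies on the minus strand of chromosome 15, at chr15:55340032-55408510. The Control libraries held 154, 202, 212, 180.1 and 178 normalized counts of CCPG1 in replicates 1 to 5, where normalized counts are counts scaled to a common effective library size. The Tunicamycin libraries held 1452, 1479.5, 1367, 1245 and 1231. Every Tunicamycin library was thus several times above every Control library, and the lowest values after treatment were those of the shallow replicates 4 and 5.

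The mean of CCPG1 was 185 ± 22.6 normalized counts in Control and 1355 ± 115 with tunicamycin (SD, n = 5 each), a 7.32-fold difference. The log2 fold change was 2.87 (SE 0.10). Within the 5 same-day pairs the log2 ratio ranged from 2.69 to 3.23. Of all tested genes, 99.7% had a smaller log2 fold change than CCPG1, which ranked 40 from the top. Without Tunicamycin replicates 4 and 5 together the log2 fold change was 2.96. In these bulk cultures a change in RNA per cell cannot be told apart from a change in the makeup of the cells sampled.

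The FAM134 proteins have a reticulon homology domain, a hairpin-shaped segment that bends the ER membrane, and FAM134B is the receptor known for the turnover of ER sheets. FAM134A (RETREG2, ENSG00000144567) lies on the plus strand at chr2:219176225-219185475. Its Control libraries held 480.3, 436, 404, 443 and 450.3 normalized counts in replicates 1 to 5, and its Tunicamycin libraries 329, 291, 317, 324 and 264. The conditions did not overlap, and tunicamycin was lower in 5 of 5 pairs. The mean went from 443 ± 27.4 to 305 ± 27.1 normalized counts (SD, n = 5), which is 69.1% of the Control level, with a log2 fold change of -0.53 (SE 0.09).

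FAM134C (RETREG3, ENSG00000141699) lies on the minus strand at chr17:42579513-42610623. Its protein is known to act together with the other FAM134 proteins on the ER membrane. The Control libraries held 192, 167, 150.5, 156 and 192 normalized counts and the Tunicamycin libraries 103, 87.3, 96.4, 75.6 and 109. Every Tunicamycin library was below every Control library. The mean went from 171 ± 19.7 to 94.2 ± 13.2 (SD, n = 5), 54.9% of the Control level, and the log2 fold change was -0.87 (SE 0.13). Without Tunicamycin replicates 4 and 5 together the log2 fold changes were -0.50 for FAM134A and -0.83 for FAM134C.

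FAM134B (RETREG1, ENSG00000154153, chr5:16473038-16617101, minus strand) had 1 count in Control replicate 1 and 0 counts in the other libraries. It could not be compared at this depth. A count of 0 in a library allows up to 3 counts, which corresponded to between 2.53 and 6.05 normalized counts depending on the library. This limit, which covers counting error only, lies well below the levels of FAM134A and FAM134C.

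RTN3 encodes a reticulon of ER tubules, and the protein's long isoform is the one known as an ER-phagy receptor. The gene (ENSG00000133318) lies on the plus strand at chr11:63681446-63759891. The Control libraries held 485, 446, 511, 474 and 515 normalized counts, and the Tunicamycin libraries 519, 566, 513, 613 and 639.6. The conditions overlapped, because the highest Control value was above the lowest Tunicamycin value, and the shallow Tunicamycin replicates 4 and 5 had the highest values. Nevertheless, tunicamycin was higher in 5 of 5 pairs, with log2 ratios from 0.01 to 0.37. The mean was 486 ± 28.5 in Control and 569.9 ± 56.1 with tunicamycin (SD, n = 5), and the log2 fold change was 0.22 (SE 0.09). RTN3 did not pass the threshold with condition as the only term. With the experiment day as a replicate block it passed, at a log2 fold change of 0.22 (SE 0.08). It also passed without Tunicamycin replicate 1 (0.26) or Tunicamycin replicate 3 (0.26), and it did not pass without Tunicamycin replicates 4 and 5 together (0.14).

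TEX264 (ENSG00000164081, chr3:51662693-51704323, plus strand) encodes a single-pass ER protein with a long cytosolic tail that reaches the autophagosome membrane. The Control libraries held 47.3, 49.0, 54.2, 73.5 and 55.9 normalized counts, and the Tunicamycin libraries 32.9, 56.6, 48.2, 45.3 and 34.3. The conditions overlapped, with tunicamycin lower in 4 of 5 pairs. The mean was 56.0 ± 10.4 in Control and 43.5 ± 9.90 with tunicamycin, and the log2 fold change of -0.35 (SE 0.19) did not pass the threshold.

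CALCOCO1 (ENSG00000012822, chr12:53708517-53727745, minus strand) encodes a soluble receptor that is held at the ER by the membrane proteins VAPA and VAPB. It had 31 counts over the Control libraries and 32 over the Tunicamycin libraries. The level was 5.55 ± 2.38 normalized counts in Control and 7.09 ± 4.25 with tunicamycin (SD, n = 5), with a log2 fold change of 0.34 (SE 0.49). The sign depended on 1 library, since the log2 fold change was -0.02 without Tunicamycin replicate 2. A change of this gene was therefore not detectable at this depth.

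ATL3 (ENSG00000184743, chr11:63624087-63671921, minus strand) encodes a GTPase of ER tubules that binds GABARAP proteins. It had 0 counts in all 10 libraries, under the same limit of 2.53 to 6.05 normalized counts. The limit applies to reads assigned to the gene, and the assignment of reads over shared exons was not tested. The related ATL2 was detected in every library, at 215 ± 27.6 normalized counts in Control and 294.5 ± 41.8 with tunicamycin.

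**Figure D1:**
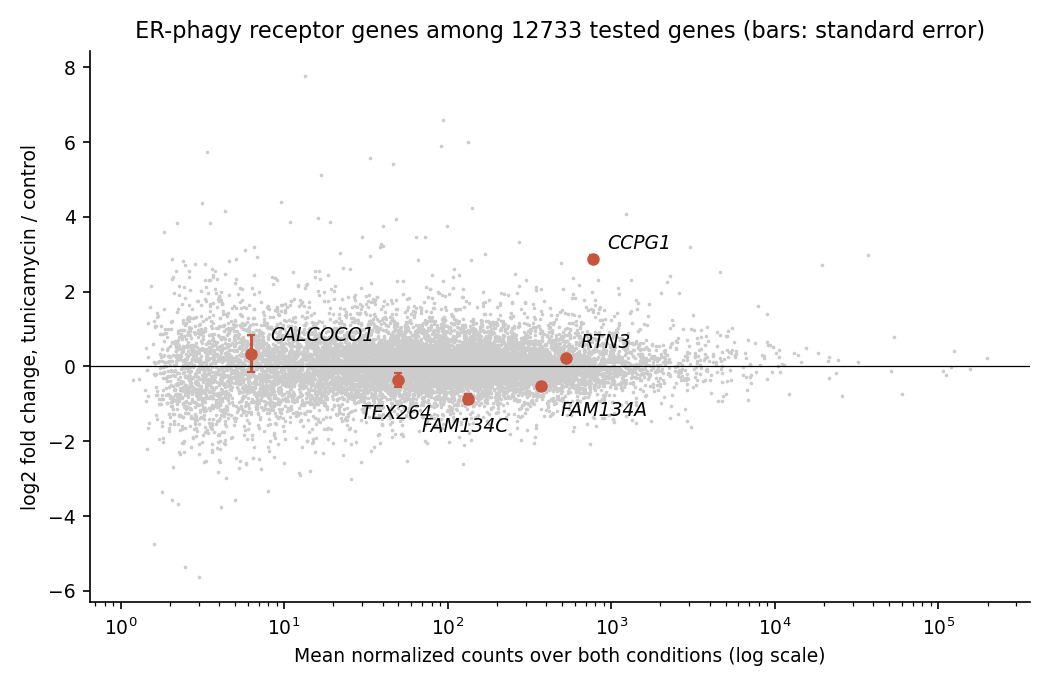
Log2 fold change of tunicamycin over Control (y axis) against the mean normalized counts (x axis, log scale) for the 12733 tested genes (grey) and the 6 tested receptor genes (red, bars show the standard error). CCPG1 stands at 2.87, apart from the other receptor genes, which lie between -0.87 (FAM134C) and 0.34 (CALCOCO1).

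The order of the receptor genes within this group differed between the conditions. In Control, RTN3 was first and FAM134A second, with a ratio of means of 1.10 and overlapping ranges, although RTN3 was the higher of the pair in 5 of 5 libraries. CCPG1 came next, at a level 2.39-fold below FAM134A. CCPG1 and FAM134C did not differ beyond their spread in Control, with CCPG1 above FAM134C in 3 of 5 libraries and a ratio of means of 1.08. TEX264 was 3.06-fold below FAM134C, and CALCOCO1 a further 10.1-fold below TEX264. With tunicamycin CCPG1 was first in all 5 libraries, 2.38-fold above RTN3. RTN3 was 1.87-fold above FAM134A, which was 3.24-fold above FAM134C. FAM134C was in turn 2.17-fold above TEX264, and no neighbouring pair overlapped in this condition.

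The normalized counts of the 8 genes summed to 1347 ± 33.6 per library in Control and 2374 ± 89.6 with tunicamycin (SD, n = 5). Without CCPG1 the sum was 1162 ± 50.2 in Control and 1019.7 ± 37.8 with tunicamycin, so the larger total lay in CCPG1. The share of CCPG1 in the summed counts of the 8 genes was 13.8% ± 1.90 in Control, from 11.3 to 15.8% over the libraries. With tunicamycin it was 57.0% ± 2.84, from 53.8 to 59.4%. RTN3 accounted for 36.1% ± 1.53 and 24.1% ± 3.01, respectively. FAM134A accounted for 32.9% ± 1.83 and 12.9% ± 1.16. FAM134C accounted for 12.7% ± 1.25 and 3.97% ± 0.595. The share of RTN3 was thus smaller with tunicamycin even though its own level was not. The order and these shares describe transcripts counted by 3′ tags and not receptor proteins. Both depend on how reads were assigned to each gene, and both hold only within the 8 genes. SEC62, a further known receptor outside this group, was at 1089 ± 207 normalized counts in Control and 1388 ± 140 with tunicamycin. The order and shares would differ if SEC62 were included.

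The genes whose normalized log2 values followed CCPG1 most closely over the 10 libraries, among 9679 genes with a mean of at least 20 normalized counts, were DNAJC10 (Pearson r = 0.998), SEL1L (r = 0.998), NUCB2 (r = 0.997), IGFBP1 (r = 0.997) and HSP90B1 (r = 0.996). DNAJC10 is a disulfide reductase of the ER lumen, SEL1L an adaptor of ER-associated degradation, and HSP90B1 an ER chaperone. The log2 fold changes of these genes ranged from 1.67 (DNAJC10) to 4.09 (IGFBP1). The 10 libraries form separate Control and Tunicamycin clusters, so r mainly reflects the distance between the conditions and is given as a description only. No such ranking was possible for FAM134B, with 1 count in all.

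The start regions of the receptor genes were searched on both strands for sequence motifs of stress and lysosomal regulators, in RefSeq windows of 300 bases (250 before and 50 after the annotated start, GRCh38.p14). Windows were found for 7 of the 8 genes, 10 windows in all. The search covered the ATF4 composite site TGATGNAA, found in 3.62% of all 35116 RefSeq windows, the AP-1 site TGANTCA (7.71%), the ER stress element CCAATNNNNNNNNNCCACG (0.0769%), the XBP1 core TGACGTG (1.97%) and the E-box CACGTG (7.26%). The window of CCPG1 held none of these, which says only that the letters are absent from this window. FAM134A, which was lower with tunicamycin, held the E-box at 2 places in the first of its 2 windows, each inside the palindrome GTCACGTGAC, a form known as a preferred site of TFEB, which regulates lysosomal genes. This palindrome was added to the search after the E-box matches were seen and occurred in 0.353% of all windows. Because it was chosen from those matches, this share does not show FAM134A to be unusual. The E-box and the AP-1 site were each found in 1 of the 10 receptor gene windows. RTN3 held 1 AP-1 site, the kind of element that the study itself examined at another gene. The matches are printed on the plus strand with the motif in capitals, to show their spacing and the bases around them, at chr2:219178193-219178218, chr2:219178220-219178245 and chr11:63681482-63681499:
FAM134A, motif starting at -74 from the annotated start: taggccgcGTCACGTGACgggctcag
FAM134A, motif starting at -47 from the annotated start: gctccgcaGTCACGTGACgctcgtcc
RTN3, motif starting at base 41 of the transcript: cgctcggcTGAGTCAgtc
A match describes these letters and is not evidence of binding. Of the 4 tested genes among 5 regulators of the TFEB and FOXO families, TFEB, TFE3 and FOXO1 did not pass the threshold. Their log2 fold changes were -0.54 (SE 0.33), 0.08 (SE 0.14) and -0.25 (SE 0.13), in that order. TFEB had only 4 to 27 counts per library, and the activity of these proteins was not measured. FOXO3 had a log2 fold change of -0.32 (adjusted p = 0.0463, edgeR's quasi-likelihood test), and its adjusted p was between 0.0595 and 0.135 when any 1 of Control replicates 1, 2, 4 and 5 or Tunicamycin replicates 2, 3, 4 and 5 was left out.

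Several receptor genes share exon sequence with neighbours, which matters for how reads were assigned. The study reports default settings of its nf-core pipeline, and the strand setting of the counting is not named in the sources used here. In the GENCODE annotation of GRCh38, CCPG1 shares 443 exon bases on the opposite strand with PIGB. On the same strand CCPG1 shares 3405 with the read-through gene DNAAF4-CCPG1, which is not listed in the count table. Whether that gene was part of the counting is not known. The upstream neighbour DYX1C1 (DNAAF4), needed for the assembly of ciliary dynein arms, was at 27.4 ± 4.97 normalized counts in Control and 61.8 ± 13.2 with tunicamycin, a log2 fold change of 1.16 (SE 0.19, adjusted p = 1.34e-04, edgeR's quasi-likelihood test). PIGB had a log2 fold change of 0.58 (adjusted p = 0.0340), and its adjusted p was between 0.0598 and 0.0886 without any 1 of Control replicates 1, 2 and 5 or Tunicamycin replicates 2, 3 and 5. PIGB had 24 to 51 counts per library and DYX1C1 23 to 82, where the lowest count of CCPG1 was 175. Counts assigned to a neighbour do not show how many reads the genes share. FAM134A (131 to 558 counts per library) shares 291 exon bases with CNPPD1 (145 to 416) on the opposite strand. FAM134C (54 to 223) shares 174 on the opposite strand with TUBG1, whose counts were higher (507 to 1542). TEX264 (17 to 82) shares 184 with RAD54L2 (57 to 166) on the same strand. FAM134B shares 561 exon bases and ATL3 shares 118 with an opposite-strand gene each, and both of these neighbours also had 0 counts in every library. The part of shared reads in the values of these genes was not tested.

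The ATG8 proteins to which the receptors bind, and the ULK1 complex that starts the autophagosome, were examined as a list of 12 genes, of which 9 were tested. By edgeR's quasi-likelihood test, 6 were higher, 1 was lower and 2 did not pass, with a median log2 fold change of 0.60. Over all tested genes, 17.6% were higher and 16.6% lower by the same test. MAP1LC3B, which encodes the main LC3 protein, was at 108 ± 25.4 normalized counts in Control and 421 ± 40.5 with tunicamycin, a log2 fold change of 1.96 (SE 0.13, adjusted p = 1.74e-09). The value of 2.15 for its near-identical paralog MAP1LC3B2 is uncertain, since reads may be split between the pair. GABARAPL1 rose by 1.12 and GABARAPL2 by 0.60 on the log2 scale. GABARAP itself had 0 to 10 counts per library and shares 691 exon bases on the same strand with another annotated gene. MAP1LC3A and MAP1LC3C had at most 1 count per library.

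Of the ULK1 complex, ATG13 rose with a log2 fold change of 0.87 and the kinase gene ULK1 fell by 0.53 on the log2 scale. RB1CC1, the binding partner of CCPG1, was at 308 ± 38.8 normalized counts in Control and 376 ± 69.3 with tunicamycin, with a log2 fold change of 0.30 (SE 0.12). It did not pass the threshold (adjusted p = 0.0705, edgeR's quasi-likelihood test), but it passed with the replicate block (0.28, adjusted p = 0.0291) and without Tunicamycin replicate 4 (0.37, adjusted p = 0.0235).

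Among 16 partners of the receptors and other selective receptors, all tested, 11 were higher, 1 was lower and 4 did not pass. The median log2 fold change of this list was 0.40. Over all tested genes, 17.6% were higher and 16.6% lower. The COPII coat genes SEC23B (1.05), SEC24C (1.03) and SEC23A (0.63) rose, as did CANX (0.66), the lectin chaperone that presents misfolded procollagen to FAM134B. PGRMC1, which hands cargo to RTN3, fell by 0.38 (adjusted p = 0.0170, edgeR's quasi-likelihood test), with an adjusted p of 0.0547 without Control replicate 3 and 0.0698 without Control replicate 4. VAPA, 1 of the anchors of CALCOCO1, rose by 0.34, and VAPB (0.19) did not pass. SEC62, the translocon subunit known as the receptor for recovery after stress, had a log2 fold change of 0.35 (adjusted p = 0.0268, edgeR's quasi-likelihood test). Its adjusted p was between 0.0527 and 0.0742 without any 1 of Control replicates 1 and 2 or Tunicamycin replicates 2, 3 and 5. CDK5RAP3, a soluble receptor tied to UFMylation, had 0.38 (adjusted p = 0.0288), and between 0.0577 and 0.0808 without any 1 of Control replicates 1, 2 and 3 or Tunicamycin replicates 4 and 5. UFMylation is the attachment of the ubiquitin-like protein UFM1 to targets at the ER. Of its 8 genes, 3 were higher, among them UFM1 (1.18) and UFSP2 (0.66), and 5 did not pass. Over all tested genes 34.2% passed, so nothing is read from this count.

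ER-shaping proteins that are not receptors were examined beside the reticulon-like receptors, as 14 tested genes of 16. Of these, 4 were higher, 3 were lower and 7 did not pass, beside 17.6% higher and 16.6% lower over all tested genes. The median log2 fold change of this list was -0.21. The lower calls of the list were 5 with the replicate block and 5 with scaling by library size alone. Without Tunicamycin replicates 4 and 5 together they were 2, and the higher calls were 4 in each of these settings. CKAP4, a spacer of ER sheets, rose by 1.05, and TMEM33 (0.58), REEP5 (0.46) and ATL2 (0.45) also rose. REEP6 fell by 0.70, REEP4 by 0.57 and RRBP1, the ribosome-binding protein of ER sheets, by 0.38 on the log2 scale. RRBP1 did not pass without Tunicamycin replicates 4 and 5 together (-0.22, adjusted p = 0.102, edgeR's quasi-likelihood test). RTN4, a relative of RTN3, was at 2095 ± 215 normalized counts in Control and 1934 ± 201 with tunicamycin, a log2 fold change of -0.11 (SE 0.10) that did not pass.

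**Figure D2:**
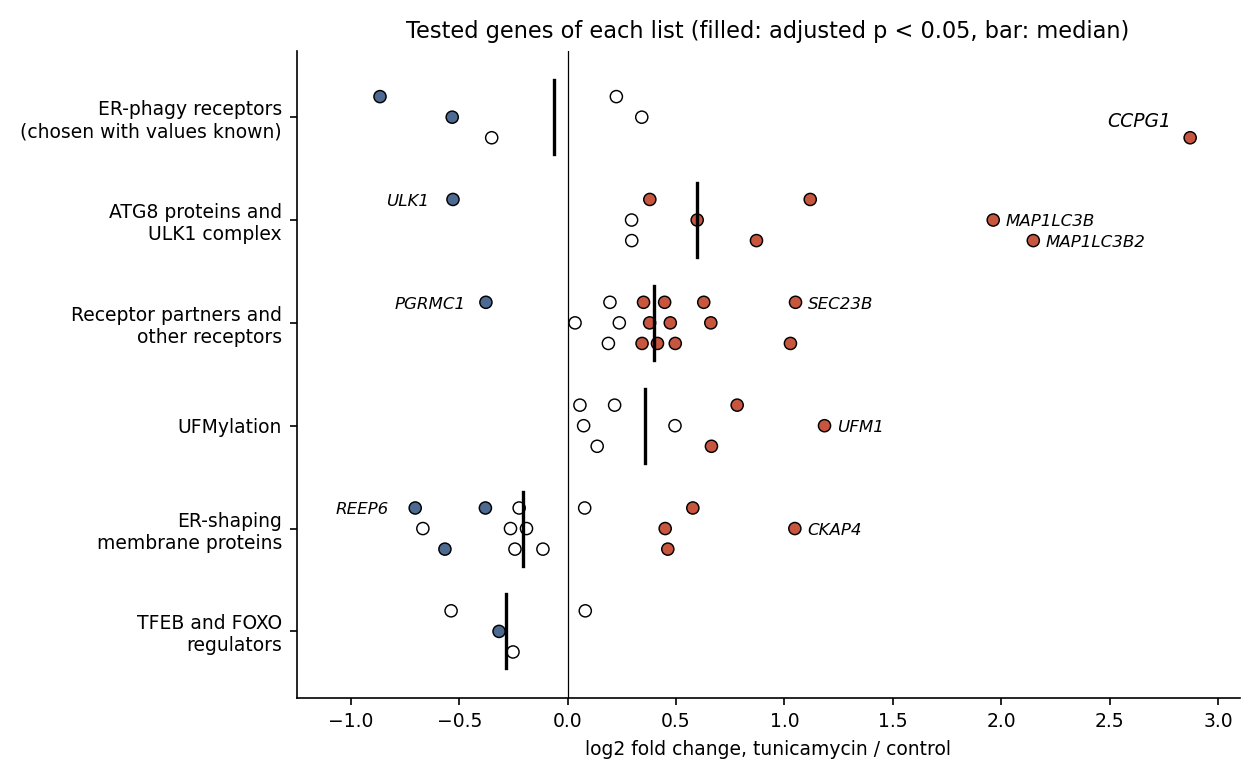
Log2 fold change of tunicamycin over Control (x axis) for each tested gene of the receptor group and of 5 related lists (y axis), with filled points for genes past an adjusted p of 0.05 in edgeR's quasi-likelihood test (red higher, blue lower) and a bar at each list's median. CCPG1 at 2.87 is the highest point shown, and the medians run from -0.28 (TFEB and FOXO regulators) to 0.60 (ATG8 proteins and the ULK1 complex).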

How the data were processed

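HepG2 RNA from 5 Control and 5 Tunicamycin cultures was sequenced as QuantSeq 3′ libraries. The authors deposited raw counts per gene, made with an nf-core pipeline at its default settings on hg19 with Ensembl genes. The aligner, counter and strand setting are not named in the sources used here. Of 32738 genes, 15320 had no counts. Genes were filtered with filterByExpr (minimum count 2, minimum total 10), scaled by TMM and tested with edgeR 4.0.16 in R 4.3.3 (quasi-likelihood, condition as the only term), with Benjamini-Hochberg adjustment over 12733 genes at 0.05. The SE is the absolute log2 fold change divided by the square root of F. Within-pair log2 ratios used a pseudocount of 0.5 normalized counts. Receptor genes and lists were chosen with earlier results of these data known. Named from each list were the up to 4 genes with the largest change per direction past the threshold, plus genes tied to the receptors by name; RTN4, VAPA, VAPB and ATL2 as a relative of ATL3 were added after their values were seen. The values of 1 gene named by this rule are not reported here. Replicate numbers mark experiment days, per the series text, and so pair the libraries; over 9704 genes, paired deviations correlated at 0.36, 0.0213, 0.0768, 0.159 and 0.134 for replicates 1 to 5. GRCh38 positions were used only for context, since the counts rest on hg19. The code was tested on simulated data. DESeq2 1.42.0, other scalings and filters, the replicate block and the omission of libraries served as alternatives.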

Additional observations from a re-analysis of the deposited data

Results flagged for a closer look

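Of 80 groups of 5 libraries examined, 2 held a library far from the other 4, where chance gives about 4. ATG13 stood at 250.0 normalized counts in Control replicate 5, against 196 to 209 in the other Control libraries. ULK1 stood at 86.0 normalized counts in Tunicamycin replicate 3, against 119 to 130.0 in the other Tunicamycin libraries. No receptor gene was among them.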

How the results depend on the processing

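The directions and calls of CCPG1, FAM134A and FAM134C were the same under every alternative run. Leaving out 1 library at a time gave log2 fold changes of 2.81 to 2.93 for CCPG1, -0.56 to -0.49 for FAM134A, -0.91 to -0.80 for FAM134C, 0.18 to 0.26 for RTN3, -0.46 to -0.22 for TEX264 and -0.02 to 0.62 for CALCOCO1. Scaling by library size alone gave 2.79 for CCPG1, -0.62 for FAM134A, -0.94 for FAM134C and 0.14 for RTN3, and calls of SEC62, CDK5RAP3 and PIGB were lost. It moved the calls among the partners from 12 to 9, among the ATG8 and ULK1 complex genes from 7 to 6 and among the ER-shaping genes from 7 to 9. FOXO3 was also lost with DESeq2 (adjusted p = 0.0524) and without a filter. With the replicate block, CCPG1 was at 2.87 and 4 receptor genes passed in place of 3, RTN3 being the addition. The block also added RB1CC1, moved the calls over all genes from 4353 to 4811, and moved those of the ER-shaping genes from 7 to 9. It changed no other call among the individually named genes that were refitted. The exclusion of Tunicamycin replicates 4 and 5 together was chosen after the data were seen. CALCOCO1 was removed by the default filter. The sum of CCPG1 with its read-through gene could not be run, since the read-through gene is not listed in the count table. How reads over their 3405 shared exon bases were assigned is not known. CALCOCO1, FAM134B and ATL3 had too few counts to compare, and the cause was not tested.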
